A study of Mus musculus with 14 samples.

Results

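miR-132 and miR-212 were measured together in mouse corpus callosum during cuprizone-induced demyelination and subsequent remyelination. They are the entries of the array named mmu-miR-132 and mmu-miR-212, which makes 2 of the 566 mouse miRNAs that the array lists, and both were among the 225 miRNAs tested. Each of the 14 arrays held RNA from punched-out corpus callosum of a male mouse, with nothing pooled. Cuprizone is a copper chelator that kills oligodendrocytes, the cells that make myelin, and the white matter tract that joins the hemispheres is strongly affected. The control mice (n = 4) were fed a normal diet, and the 4wd mice (n = 4) had received chow with 0.2-0.4% cuprizone for 4 weeks to demyelinate the tract. The 2dr mice (n = 4) had the same 4 weeks of cuprizone and then 2 days of regular diet, and the 2wr mice (n = 2) had 2 weeks of regular diet after it. By the study's methods the mice were 7 to 8 weeks old at the start of cuprizone, and the labels give no strain or genotype for these mice. The sources used here do not tie the mice to litters or cages, so the p-values measure the spread between these arrays.

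Both miRNAs are cut from a shared noncoding transcript whose transcription in neurons is switched on by synaptic activity and neurotrophins through the transcription factor CREB. In neurons miR-132 is known to promote the growth of dendrites and spines. The corpus callosum holds axons, glia and vessels and few neuronal cell bodies, so the pair is here measured in tissue where its best-known source is represented mainly by axons.

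The mature sequences of the pair are shown because they differ only toward the 3' end. In RefSeq (mouse build GRCm38.p6) both members of the pair were found, on the plus strand of chromosome 11, each within its own hairpin of a noncoding RNA gene. The hairpins follow, with the mature 3p arm in capitals, since this arm carries the seed that the pair shares.
Mir212 hairpin: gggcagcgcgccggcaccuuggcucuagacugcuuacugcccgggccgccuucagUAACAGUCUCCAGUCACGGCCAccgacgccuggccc
Mir132 hairpin: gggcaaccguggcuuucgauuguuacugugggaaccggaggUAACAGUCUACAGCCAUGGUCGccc
The Mir212 hairpin of 91 bases lies at chr11:75173388-75173478, and the Mir132 hairpin of 66 bases follows at chr11:75173682-75173747 after a gap of 203 bases.

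The mature 3p arms are shown with the seed, bases 2 to 8 from the 5' end, in capitals.
mmu-miR-132-3p: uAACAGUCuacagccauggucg
mmu-miR-212-3p: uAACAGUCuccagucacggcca
They lie at chr11:75173723-75173744 and chr11:75173443-75173464. The arms share the seed AACAGUC, which no other of the 1679 mature mouse names in the RefSeq table carries. They were identical at 17 of 22 positions, and the first 9 bases were the same. The differences, with the base of miR-132 first and positions counted from the 5' end, were A10C, C14U, U17C, U20C and G22A. GC content was 50% in miR-132-3p and 54.5% in miR-212-3p. The names on the array carry no arm, and the probe sequences are not given in the sources used here, so the match of each name to its 3p arm rests on the older naming in which the arm without a star was the main product. How far a probe of one miRNA also binds the other was not tested.

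The arrays lay on 2 slides. Slide 1 held 8 arrays (2 control, 2 4wd, 3 2dr and 1 2wr) and slide 2 held 6 (2 control, 2 4wd, 1 2dr and 1 2wr), and the slides were scanned on different days. The first principal component of the 225 tested miRNAs carried 45.9% of the variance, and the scores of the 2 slides on it did not overlap. Between 181 and 287 mouse miRNAs were detected per array, and 170 were detected on all 14. The summed signal of an array ran from 85417 to 173924 in controls, from 50187 to 90452 at 4wd, from 45664 to 139285 at 2dr and from 72411 to 129989 at 2wr. The oligodendrocyte list of miR-219, miR-338-3p and miR-338-5p was present on the array with all 3 members, and all were detected on every control array. Its summed normalized signal was 0.97 to 3.45 in controls, 0.53 to 1.40 at 4wd, 0.81 to 2.75 at 2dr and 1.63 to 1.82 at 2wr (log2), and 0 of 3 were called in any comparison. Between 4wd and control the log2 fold changes were -0.83 for miR-219 and -1.17 for miR-338-3p (adjusted p = 0.601 and 0.402, limma), and miR-338-5p was detected on 8 of the 14 arrays. After normexp correction, an alternative way to subtract background, 1 of the 3 was positive in this comparison. Of 5 myeloid miRNAs 4 were tested, and miR-155, an miRNA of activated immune cells, was called higher at 4wd (adjusted p = 0.0385, limma) and at 2dr (adjusted p = 0.00222, limma) than in controls. It was detected on 6 of 14 arrays, so no fold is given, and over the alternatives run its adjusted p was 0.0209 to 0.295 at 4wd and 0.000419 to 0.957 at 2dr. A miRNA was tested once all arrays of any 1 group detected it. For an miRNA detected on so few arrays this filter favours a higher signal in that group, so the calls are not independent of it. The other tested myeloid miRNAs were not called and did not share a direction at 4wd against control. There miR-142-3p (detected on 11 arrays) stood at 1.69, miR-342-3p (14 arrays) at 0.23 and miR-223 (8 arrays) at -0.91. At 2dr against control they stood at 2.69, 0.31 and 0.03, in that order. The precision of all group values is limited by the number of arrays.

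Signals are given first as the total gene signal, the background-subtracted brightness summed over an miRNA's spots. For miR-132 the control arrays read 1316, 1411, 996 and 1749 for replicates 1 to 4, and the 4wd arrays read 963, 951, 382 and 541. The 2dr arrays read 1058, 405, 973 and 1119, and the 2wr arrays read 854 and 1204. Every 4wd array was thus dimmer than every control array before the arrays were scaled to each other. This was not particular to miR-132. The 75th percentile of the miRNAs detected on all arrays was 217 to 344 on 4wd arrays and 379 to 849 on control arrays. Without scaling, the median log2 fold change of the 225 tested miRNAs was -0.93 at 4wd against control. For miR-212 the control arrays read 73.8, 95.7, 92.4 and 173, and the 4wd arrays read 47.5, 53.1, 47.0 and 59.0. The 2dr arrays read 53.4, 16.6, 80.2 and 52.2, and the 2wr arrays read 52.2 and 104. miR-132 and miR-212 were both detected on all 14 arrays. The image software's error was 7.16% to 7.45% of the signal for miR-132 and 7.42% to 15.4% for miR-212, whose highest value came from 2dr replicate 2, the array with the lowest summed signal and the fewest detected miRNAs.

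The comparisons used the normalized signal, log2 of the total gene signal relative to the 75th percentile of the 170 miRNAs detected on every array, so that 0 stands for a signal at that percentile. A call required an adjusted p under 0.05 in limma, fitted over all 225 miRNAs and 4 groups, and at least a 2-fold change. By this rule neither member of the pair was called in any of the 6 comparisons between groups. The background was 0.444% of miRNAs called between 4wd and control, 0.889% between 2dr and control, and 0% in each of the other 4. The comparisons with control share the control arrays, and those with 4wd or 2dr share these arrays in turn. RNA from whole tissue was measured, so fewer cells of a type and less RNA per cell cannot be told apart.

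miR-132 lay between 0.57 and 1.58 (log2) on the 14 arrays. The normalized signal of the control replicates was 1.07, 1.30, 1.40 and 1.04 (log2), a mean of 1.20 ± 0.17 (SD, n = 4). The 4wd replicates stood at 1.58, 1.57, 0.81 and 0.65, a mean of 1.15 ± 0.49 (SD, n = 4). In this group the first 2 arrays, from slide 1, were above every control and the other 2, from slide 2, were below every control. The 2dr replicates stood at 1.24, 0.95, 0.57 and 0.87, a mean of 0.91 ± 0.27 (SD, n = 4). The 2wr replicates stood at 1.48 and 0.96, a mean of 1.22 ± 0.37 (SD, n = 2). Of the 2dr arrays 3 were below all controls, while 1 of the 2wr arrays was above all controls and the other below all of them.

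The order of the miR-132 means was 2wr, control, 4wd and 2dr, and no neighbours in this order differed beyond the spread between arrays. In limma the log2 fold change was -0.05 at 4wd against control (95% interval -0.61 to 0.51, adjusted p = 0.981). At 2dr against control it was -0.30 (95% interval -0.85 to 0.26, adjusted p = 0.522). The median over all 225 tested miRNAs in that comparison was -0.25, so miR-132 stood close to the middle of the array. At 2wr against control the log2 fold change was 0.02 (95% interval -0.66 to 0.70, adjusted p = 0.996). Each of these intervals includes 0, and the 4wd interval corresponds to between 0.657- and 1.42-fold of control.

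The remaining miR-132 comparisons were of similar size. The log2 fold change was -0.25 at 2dr against 4wd (95% interval -0.80 to 0.31, adjusted p = 0.587, limma) and 0.07 at 2wr against 4wd (95% interval -0.61 to 0.75, adjusted p = 0.962, limma). At 2wr against 2dr it was 0.31 (95% interval -0.37 to 0.99, adjusted p = 1, limma). The moderated F test over the 4 groups gave an unadjusted p of 0.635 and an adjusted p of 0.834 for miR-132 in limma. Exact two-sided permutation tests of the group means gave p = 0.114 at 2dr against control and p = 0.333 to 0.933 in the other 5 comparisons.

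miR-212 had its lowest group mean at 2dr. The normalized signal of the control replicates was -3.09, -2.58, -2.04 and -2.29 (log2), a mean of -2.50 ± 0.45 (SD, n = 4). The 4wd replicates stood at -2.76, -2.60, -2.21 and -2.55, a mean of -2.53 ± 0.23 (SD, n = 4). These lay inside the control range. The 2dr replicates stood at -3.07, -3.65, -3.03 and -3.56, a mean of -3.33 ± 0.32 (SD, n = 4). The 2wr replicates stood at -2.55 and -2.58, a mean of -2.56 ± 0.018 (SD, n = 2). All 4 of the 2dr arrays were below every 4wd array and below both 2wr arrays, and 2 of them were below every control array, of which control replicate 1 was the dimmest.

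**Figure D1:**
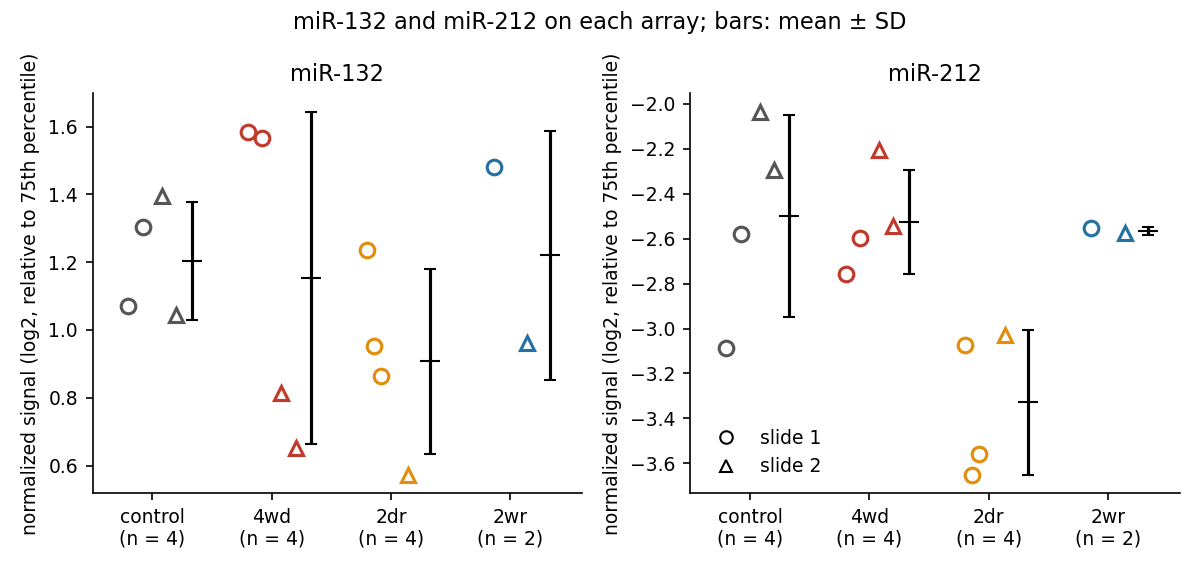
Normalized signal of miR-132 (left) and miR-212 (right) on each of the 14 arrays, in log2 relative to the 75th percentile, by group; circles are slide 1, triangles slide 2, and the bars give the mean ± SD of the group. The 4wd arrays split by slide for miR-132, and the 2dr arrays, at -3.65 to -3.03, are below the 4wd and 2wr arrays for miR-212.

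The order of the miR-212 means was control, 4wd, 2wr and 2dr. The first 3 were within 0.07 of each other, and control and 4wd differed by -0.03 (95% interval -0.57 to 0.51, adjusted p = 0.981, limma). At 2wr against control the log2 fold change was -0.07 (95% interval -0.73 to 0.60, adjusted p = 0.996, limma), and at 2wr against 4wd it was -0.04 (95% interval -0.70 to 0.62, adjusted p = 0.962, limma). These intervals reach about as far below 0 as above it.

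At 2dr against control the log2 fold change of miR-212 was -0.83 (SE 0.25, 95% interval -1.37 to -0.29), which is 0.563-fold of control. Its unadjusted p was 0.00564 and its adjusted p 0.201 in limma, so it did not pass the threshold, and its change was also under 2-fold. It ranked 5 of 225 by p in this comparison. The median over all tested miRNAs was -0.25, which left -0.57 for miR-212 relative to it. An unadjusted p under 0.05 with a lower signal was found for 18 of 225 miRNAs, a background of 8%. An exact two-sided permutation test of the group means gave p = 0.0857.

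At 2dr against 4wd the log2 fold change of miR-212 was -0.80 (SE 0.25, 95% interval -1.34 to -0.26), with an unadjusted p of 0.00706 and an adjusted p of 0.198 in limma. The median over all tested miRNAs was -0.30, and relative to it miR-212 stood at -0.50. Here the 2 groups did not overlap, and 7.56% of tested miRNAs had 2dr arrays that were all below the 4wd arrays. An unadjusted p under 0.05 with a lower signal was found for 15.6% of tested miRNAs. The exact two-sided permutation test gave p = 0.0286, the smallest that 4 arrays against 4 allow, and 0.343 after adjustment over the 12 tests of both members.

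At 2wr against 2dr the log2 fold change of miR-212 was 0.76 (SE 0.31, 95% interval 0.10 to 1.42), with an unadjusted p of 0.0271 and an adjusted p of 1 in limma. By p it ranked 1 of 225 in this comparison, where 0.889% of tested miRNAs were higher at an unadjusted p under 0.05. Both 2wr arrays were above every 2dr array, which held for 2.22% of tested miRNAs. With 2 arrays against 4 the smallest exact p is 0.0667, and the exact two-sided permutation test gave p = 0.133. Over the 4 groups the moderated F test gave an unadjusted p of 0.0169 and an adjusted p of 0.522 for miR-212 in limma, and 1 of the 225 miRNAs passed that test after adjustment. The study's own overall test, an analysis of variance, adjusted to 0.822 for miR-132 and 0.430 for miR-212.

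**Figure D2:**
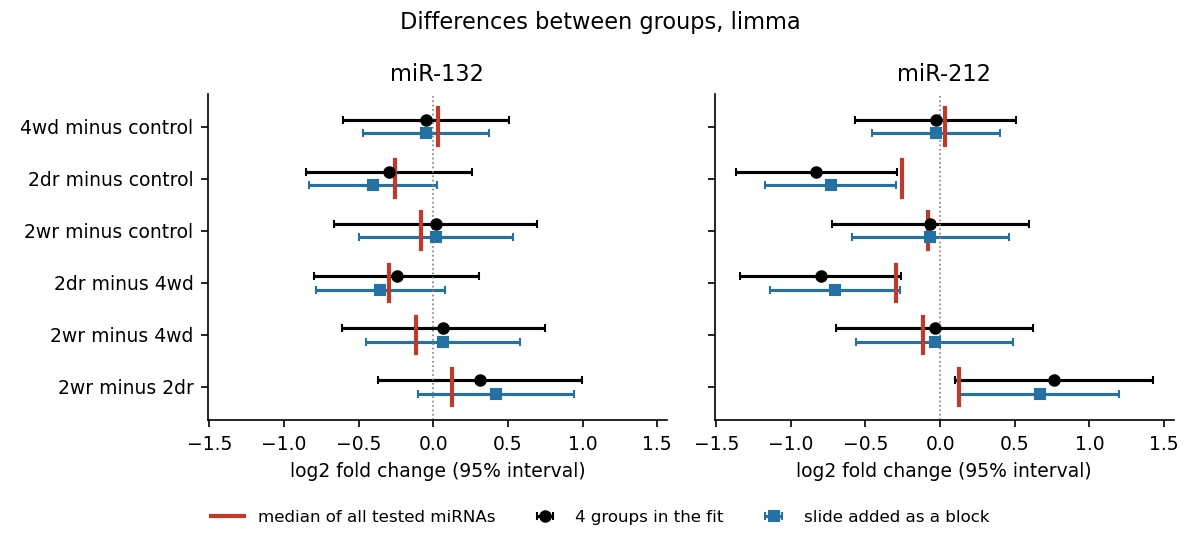
Log2 fold changes of miR-132 (left) and miR-212 (right) in the 6 comparisons, with their 95% intervals from limma, fitted with the 4 groups (black) or with the slide added as a block (blue); the red lines mark the median of the 225 tested miRNAs. The intervals of miR-132 all include 0, and those of miR-212 exclude it in the 3 comparisons that involve 2dr, where the adjusted p-values are 0.201, 0.198 and 1.

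The difference between the slides had opposite signs for the members. With the groups in the fit, slide 2 differed from slide 1 by -0.43 for miR-132 (95% interval -0.76 to -0.10, adjusted p = 0.0489, limma) and by 0.39 for miR-212 (95% interval 0.05 to 0.72, adjusted p = 0.0755, limma), of which only the first was past the threshold. Of all tested miRNAs 12.4% were lower on slide 2 and 18.2% were higher. Whether hybridisation, scanning or the mice themselves lie behind the slides cannot be told apart.

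Within slides the miR-132 comparison of 4wd with control turned its sign. It was 0.39 on slide 1 and -0.49 on slide 2, each from 2 arrays against 2. For miR-132 at 2dr against control the difference was -0.17 on slide 1 (3 arrays against 2) and -0.65 on slide 2 (1 against 2). At 2wr against control it was 0.29 on slide 1 and -0.26 on slide 2, each from a single 2wr array.

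For miR-212 the 2dr differences had the same sign on both slides. Against control they were -0.60 on slide 1 and -0.86 on slide 2, and against 4wd they were -0.75 and -0.65. The 2wr arrays were above 2dr by 0.87 on slide 1 and by 0.45 on slide 2. For miR-212 the difference between 4wd and control turned, with 0.15 on slide 1 and -0.21 on slide 2. With slide as a block in the fit, miR-212 at 2dr against control was -0.73 (adjusted p = 0.217, limma).

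The size of the miR-212 difference depended on how the signals were made comparable. Between 2dr and control it was -0.15 after normexp background correction of the spots and -1.23 without scaling between arrays, and relative to the median of all miRNAs it was -0.32 and -0.58 under these settings. At 2dr against 4wd it was -0.23 without scaling, or -0.50 relative to the median. After normexp correction it was -0.83 there, but only -0.16 relative to a median of -0.68. At 2wr against 2dr the difference was 0.28 after normexp correction, with a 95% interval of -0.58 to 1.14 that includes 0. Leaving out 1 array at a time gave -1.02 to -0.67 at 2dr against control, and it was -0.72 without 2dr replicate 2.

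Each miRNA was read by 2 probes of 10 spots per array. The miR-132 probes, A_54_P1054 and A_54_P1055, were well above background in 140 of 140 spots each. For miR-212 this held for 128 of 140 spots of A_54_P2616 and 139 of 140 of A_54_P2617, and no spot of any of the 4 probes was saturated. On 2dr replicate 2 it held for only 1 of 10 spots of A_54_P2616, so this probe's 2dr values include an array near background. The median coefficient of variation between the spots of a probe was 5.75% and 6.04% for miR-132 and 11.0% and 7.92% for miR-212.

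With each of the 4 probes the 2dr mean was the lowest of the groups, while the order of the other groups differed between the probes of a miRNA. The difference at 2dr against control was -0.996 for A_54_P2616 and -0.74 for A_54_P2617, and at 2dr against 4wd it was -0.81 and -0.79. With either miR-212 probe all 4 of the 2dr arrays were below all 4wd arrays. For miR-132 the probes gave -0.26 and -0.35 at 2dr against control. The slide difference was also seen with each probe, at -0.56 and -0.26 for miR-132 and 0.47 and 0.26 for miR-212.

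**Figure D3:**
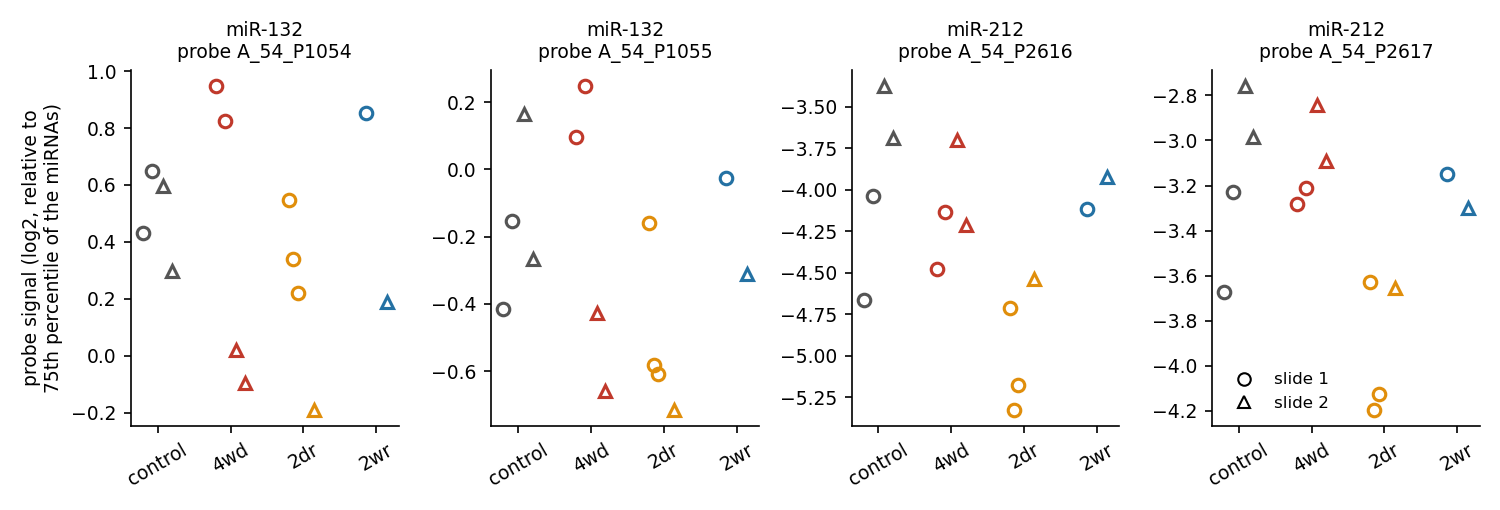
Signal of each of the 4 probes on each array, in log2 relative to the 75th percentile of the miRNAs, by group; circles are slide 1 and triangles slide 2, and each panel has its own scale because levels of different probes are not compared. With both miR-212 probes the 2dr arrays are below all 4wd arrays, and with both miR-132 probes the 4wd arrays split by slide.

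The mature miRNAs come from a shared transcript, so the within-array log2 ratio of miR-212 to miR-132 was compared between groups. The ratio's own level depends on the probes and is used here only for differences. Its mean was -3.70 ± 0.38 (SD, n = 4) in controls and -4.23 ± 0.44 (SD, n = 4) at 2dr, a difference of -0.53 (exact two-sided permutation p = 0.143) that was 0.12 after normexp correction. Within the slides the difference was -0.43 and -0.22. Against 4wd, with a mean of -3.68 ± 0.67 (SD, n = 4), the 2dr difference was -0.55 (exact permutation p = 0.200). At 4wd against control the ratio differed by 0.02 (exact permutation p = 0.971), and at 2wr against control by -0.08 (exact permutation p = 0.733). Over the 6 comparisons of the ratio the adjusted p-values were 0.533 to 0.971. On every slide 1 array the ratio was -3.88 or lower, and on every slide 2 array it was -3.60 or higher, so the slides separated the ratio where the groups did not.

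Of the correlations of the members across arrays, only Pearson's r on slide 1 passed after adjustment. Over all 14 arrays Pearson's r was 0.26 (permutation p = 0.369) and Spearman's rank correlation 0.08 (permutation p = 0.786). On the 8 arrays of slide 1 r was 0.89 (exact permutation p = 0.00454, adjusted 0.0182) and the rank correlation 0.76 (exact permutation p = 0.0368, adjusted 0.147). On the 6 arrays of slide 2 r was 0.79 (exact permutation p = 0.0611, adjusted 0.122) and the rank correlation 0.71 (exact permutation p = 0.136, adjusted 0.272). Of 9 relations computed, the 4 with a p were adjusted together.

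Leaving out the 2 arrays farthest from the median of miR-132 gave r = 0.28 over 12 arrays, 0.72 on the 6 remaining of slide 1 and 0.25 on the 4 remaining of slide 2. This step narrows the range of miR-132 by design, which by itself tends to lower r. With 4 arrays left on slide 2, it cannot decide whether the relation there rested on the arrays left out. After subtraction of the slide means r was 0.84 over 14 arrays, and for the residuals of a fit with group and slide it was 0.73, whereas for deviations from the group means alone it was -0.10. The arrays of a slide share the hybridisation and each array's scaling enters both values.

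**Figure D4:**
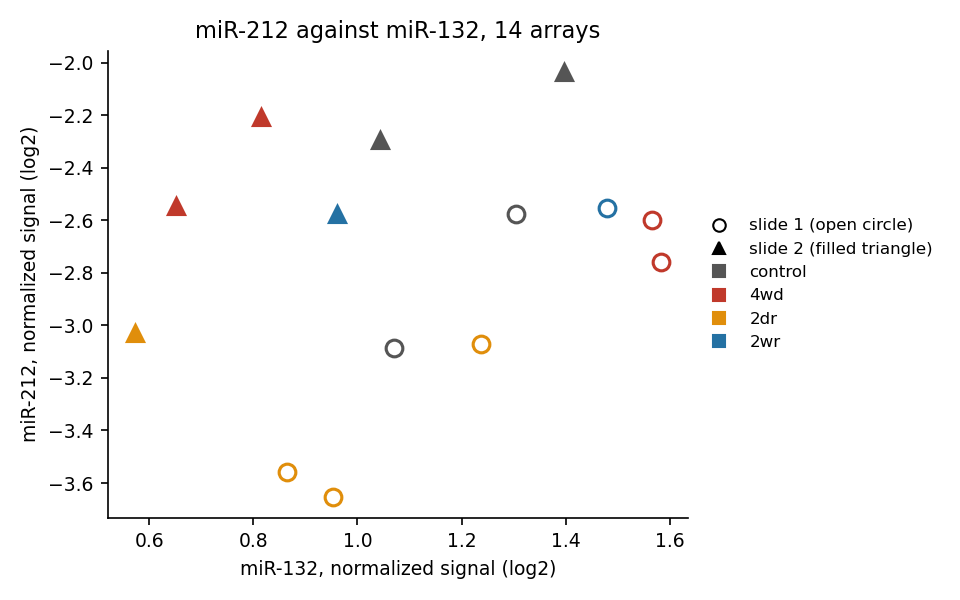
Normalized signal of miR-212 against miR-132 (log2) on 14 arrays, coloured by group; open circles are slide 1 (n = 8, r = 0.89) and filled triangles slide 2 (n = 6, r = 0.79). The slides form separate bands, with slide 2 toward lower miR-132 and higher miR-212, and over all arrays r is 0.26.

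Among the other 224 tested miRNAs the partner was not the nearest match before the slides were taken into account. By Pearson's r over the 14 arrays miR-212 ranked 74 of 224 for miR-132, and miR-132 ranked 111 of 224 for miR-212. After subtraction of the slide means miR-212 ranked 1 for miR-132, and miR-132 ranked 4 for miR-212. The median r over all miRNAs was 0.13 with miR-132 and 0.26 with miR-212 after that step.

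The miRNAs most alike to miR-132 over the 14 arrays were miR-300 (r = 0.82, and 0.73 after subtraction of the slide means), miR-128 (0.77 and 0.65), miR-124 (0.76 and 0.82), miR-674* (0.75 and 0.62) and miR-337-5p (0.74 and 0.68). miR-124 and miR-128 are abundant miRNAs of neurons. Those most alike to miR-212 were miR-381 (r = 0.87, and 0.91 after subtraction), miR-874 (0.87 and 0.82), miR-370 (0.85 and 0.81), miR-672 (0.84 and 0.75) and miR-138 (0.83 and 0.82). Of these miR-874 was detected on 13 arrays and miR-672 on 12. miR-381 belongs to the large imprinted miRNA cluster that the factor Mef2 drives in neurons, and miR-138 is a brain miRNA that restrains the growth of dendritic spines.

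Other miRNAs linked to neuronal activity were described beside the pair. The list had 9 members, all on the array, of which 6 were tested and 0 were called in any comparison. miR-134 was detected on 2 arrays, miR-485* on 3 and miR-184 on 0, and they were not tested. All 6 had negative log2 fold changes at 2dr against control, with a median of -0.46. The median over all 225 was -0.25, so most tested miRNAs were lower too. At an unadjusted p under 0.05, 8% of all tested miRNAs were lower, and so were 2 of the 6. These were miR-381 at -0.67 (unadjusted p of 0.00625, adjusted p = 0.201, limma) and miR-379 of the same Mef2-driven cluster at -0.60 (unadjusted p of 0.0297, adjusted p = 0.368, limma). miR-329, listed in that cluster as well, stood at -0.15 (unadjusted p of 0.605, limma), nearer to 0 than the median over all 225. miR-138 stood at -0.62, miR-485 at -0.31 and miR-188-5p at -0.30. The direction depended on the scaling: with the percentile taken over all mouse miRNAs 5 of 6 were negative with a median of -0.18 beside 0.03, with quantile normalization 4 of 6 with -0.19 beside -0.05, and after normexp correction 2 of 6 with 0.03 beside 0.17.

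At 2dr against 4wd all 6 were again negative, with a median of -0.53 beside -0.30 over all miRNAs. At an unadjusted p under 0.05, 15.6% of all tested miRNAs were lower, and so were 3 of the 6. miR-485 stood at -0.92 (unadjusted p of 0.00305, adjusted p = 0.173, limma), miR-138 at -0.93 (adjusted p = 0.249, limma) and miR-381 at -0.53 (adjusted p = 0.214, limma). Without scaling between arrays 2 of 6 were negative, with a median of 0.04 beside 0.27. At 4wd against control the list's median was 0.16, with 4 of 6 positive (-0.82 with 0 of 6 positive without scaling, beside -0.93 over all miRNAs), and at 2wr against control it was -0.19. The summed normalized signal of the list was 0.09 to 0.83 in controls, 0.39 to 0.83 at 4wd, -0.36 to 0.46 at 2dr and 0.29 to 0.31 at 2wr (log2).

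Of 10 neuronal miRNAs listed 8 were on the array and tested, and 0 were called. Their summed normalized signal was 4.96 to 5.13 in controls, 4.48 to 5.48 at 4wd, 4.49 to 5.07 at 2dr and 4.89 to 5.02 at 2wr (log2), and all 8 were detected on every array. All 8 had negative log2 fold changes at 2dr against control, but the median of -0.17 was nearer to 0 than the -0.25 over all tested miRNAs. With the percentile over all mouse miRNAs 3 of 8 were negative, with a median of 0.11 beside 0.03 over all tested miRNAs. At 2dr against 4wd the median was -0.51, with 6 of 8 negative, beside -0.30 over all tested miRNAs. Without scaling it was 0.06, with 3 of 8 negative, beside 0.27, so it was below the median of all tested miRNAs either way. miR-124, the most widely used neuronal marker among miRNAs, stood at -0.48 at 2dr against control and at -0.54 at 2dr against 4wd (adjusted p = 0.448 and 0.351, limma). Whether the amount of neuronal RNA in the punches took part in the miR-212 values was not tested.

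**Figure D5:**
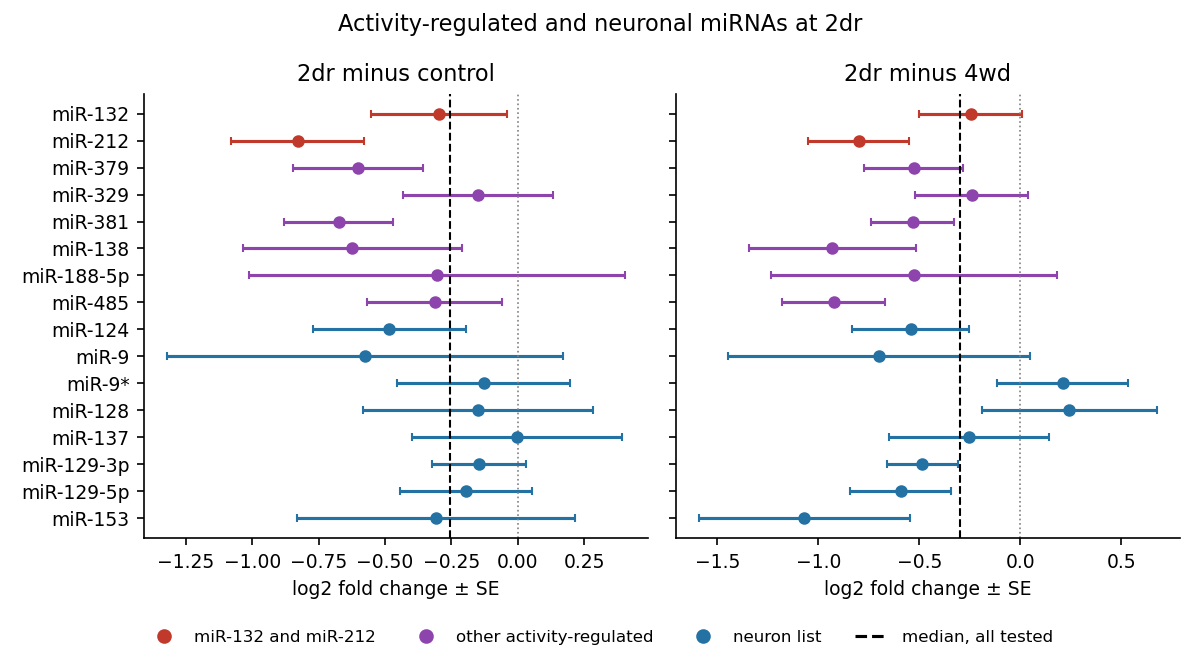
Log2 fold change ± SE at 2dr against control (left) and against 4wd (right) for miR-132 and miR-212 (red), 6 other activity-regulated miRNAs (purple) and 8 neuronal miRNAs (blue); the dashed line is the median of the 225 tested miRNAs. miR-212 is at -0.83 and -0.80, the 6 activity-regulated miRNAs are negative under this scaling (5 of 6 with the percentile over all mouse miRNAs), and none of those drawn was called.

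The other lists did not hold a called miRNA apart from miR-155. At 2dr against control the single tested endothelial miRNA, miR-126-3p, stood at 0.03, and miR-451 of red blood cells stood at 0.06 (adjusted p = 0.964 and 0.939, limma). The other tested red blood cell miRNA, miR-486, went the other way at -1.14 (adjusted p = 0.437, limma). The summed signal of the endothelial list was -0.63 to 0.25 in controls and -0.55 to 0.07 at 2dr, that of the red blood cell list was -1.11 to -0.02 and -1.11 to -0.38, and that of the myeloid list was -0.07 to 0.19 and 0.07 to 1.28 (log2). miR-486 of the red blood cell list was detected on 9 arrays and miR-144 on 0.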

How the data were processed

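Total RNA (100 ng per array) was labelled with Cy3 and hybridised by the authors to Agilent mouse miRNA arrays. The deposited scanner tables hold intensity values on a linear scale, made with Agilent Feature Extraction 10.5.1.1 per the file headers and the submitters' processing notes. The software subtracted background and summed the spots and probes of each miRNA. The authors' own table, deposited on a log2 scale, held log2 total signal minus a constant per array within 0.01 for at least 559 of 560 miRNAs on 13 arrays and for 368 on 4wd replicate 1. Its column medians ran from -5.73 to -3.05. It was used as an alternative, and a higher value there stands for a higher scanner signal.

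Here the total gene signal was divided by the array's 75th percentile over the 170 miRNAs detected on all arrays, floored at 0.00176 (each array's dimmest detected miRNA after scaling, as a median over the 14) and log2-transformed. Testing covered the 225 mouse miRNAs that all arrays of any 1 of the groups detected, with 10 viral entries left out and 250 mouse miRNAs detected on 0 arrays. The filter follows the study's methods, which name the 75th percentile without saying over which miRNAs. The percentile over all mouse miRNAs was an alternative. limma 3.58.1 (R 4.3.3) was fitted over 14 arrays and 4 groups, with Benjamini-Hochberg adjustment over all 225, in place of the analysis of variance with Tukey's comparison that the methods name. The limma step was tested on simulated data. Exact permutation tests enumerated all assignments, and correlations over more than 10 arrays used 100000 permutations. 0 columns of per-sample values were without a sample.

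Named miRNAs were the pair, the members of the lists, and the 5 miRNAs with the highest r to each member. The members and lists were chosen with earlier results of these data known. Alternatives were normexp correction with an offset of 50, mean spot signal, other scalings, filters and floors, slide or replicate number as a block, the authors' table and leaving out arrays. Unscaled signals and slide 1 alone were added after seeing the data. No arrays were duplicates, the smallest median absolute difference between any pair being 0.22 in log2. Sequences are from RefSeq tables of GRCm38.p6. The array design names build mm9, and none of its coordinates were used.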

Additional observations from a re-analysis of the deposited data

How the results depend on the processing

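Neither member was called under any alternative. miR-212 kept its direction under all 12 alternatives at 2dr against control (-1.23 to -0.15, adjusted p 0.119 to 0.957), at 2dr against 4wd (-0.83 to -0.23) and at 2wr against 2dr (0.28 to 0.94). Relative to the median of all miRNAs it ranged from -0.78 to -0.29, from -0.80 to -0.16 and from 0.27 to 0.84, in that order. miR-132 kept its own direction at 2dr against control (-0.70 to -0.01). The methods' analysis of variance, no filter and the lower floor left the pair's fold changes as they were and could not turn a sign. The replicate block likewise could not at 2dr against control or 4wd. Other differences turned, among them that of miR-132 at 2dr against 4wd (-0.25) and that of the ratio at 2dr against control (-0.53). Under normexp correction, which moved the median of all miRNAs at 4wd against control to 0.80, miR-212 stood at 0.68 at 4wd and 0.12 at 2wr against control, miR-132 at 0.16 at 2dr against 4wd, and the ratio of miR-212 to miR-132 at 1.12 (4wd), 0.12 (2dr) and 0.12 (2wr) against control. Relative to the median, miR-212 at 4wd ranged from -0.15 to 0.14 over the alternatives. With the percentile over all miRNAs miR-212 stood at 0.11 at 2wr against control and 0.18 against 4wd, and miR-132 at 0.077 at 2dr against 4wd. With quantile normalization miR-212 stood at 0.076 and 0.20 at 2wr against control and 4wd, and the ratio at -0.025 (4wd) and 0.072 (2wr) against control. The authors' values gave miR-212 0.077 and 0.18 at 2wr against control and 4wd, and miR-132 0.093 at 2dr against 4wd. Without scaling, where the medians of all miRNAs were -0.93 (4wd), -0.65 (2dr) and -0.49 (2wr) against control, miR-132 stood at -0.40 at 2wr against control and 0.33 at 2dr against 4wd, and miR-212 at 0.52 at 2wr against 4wd. On slide 1 alone miR-132 stood at 0.39 at 4wd against control and -0.095 at 2wr against 4wd, and miR-212 at 0.15 (4wd) and 0.28 (2wr) against control and 0.13 at 2wr against 4wd. The causes were not tested.

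Same-numbered arrays did not deviate together in every pair: of 18 pairs 13 had a correlation over 0.1, the lowest was -0.61, and 13 were on the same slide, so the numbers were not taken as pairing. The numbers of the 2wr arrays are those of their titles, and their source names carry other numbers, under which they would share no block with another group, so the block values of 2wr rest on that choice. With the replicate block miR-212 stood at -0.83 at 2dr against control (adjusted p = 0.119, limma), while at 2wr against control miR-132 stood at -0.18 and miR-212 at 0.11, and at 2wr against 4wd at -0.13 and 0.14. The block changed no call.

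The number of miRNAs called at 4wd against control was 1, but 74 (73 higher, 1 lower) under normexp correction and 0 with mean spot signal, quantile normalization, no filter, the lower floor, no scaling and the methods' analysis of variance. At 2dr against control it was 2, but 0 under normexp correction, no scaling and the methods' analysis and 1 with no filter. At 2wr against control it was 0, but 1 with the percentile over all miRNAs, the slide block and the authors' values. On slide 1 alone the call at 4wd against control was 1 lower in place of 1 higher, as it also was without 4wd replicate 4, and at 2dr against control the calls were 1 higher and 1 lower in place of 2 higher. Leaving out each array in turn gave 0 to 1, 1 to 2 and 0 to 1 calls in these comparisons. It gave -0.19 to 0.12 for miR-132 and -0.23 to 0.12 for miR-212 at 4wd against control, -0.24 to 0.28 and -0.26 to 0.088 at 2wr against control, and -0.19 to 0.33 and -0.11 to 0.070 at 2wr against 4wd. For the ratio it gave -0.20 to 0.24 (4wd), -0.74 to -0.41 (2dr) and -0.33 to 0.16 (2wr) against control. Of the probes of the pair, A_54_P2616 of miR-212 was nearest to background, with 128 of 140 spots well above it.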
